A study of Mus musculus with 9 samples.

Results

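Epithelial-mesenchymal transition (EMT) regulators and myofibroblast markers were followed in the *Atf4* null mouse lens through 9 genes, of 55416 counted in each library. *Acta2*, *Tagln*, *Tnc* and *Fn1* mark myofibroblasts, and *Snai1*, *Snai2*, *Zeb1*, *Zeb2* and *Twist1* encode transcription factors that drive EMT. The genes were chosen by symbol, and each matched 1 Ensembl identifier. RNA was prepared from the pair of lenses of each of 4 *Atf4* null and 5 wildtype littermate E16.5 embryos, with 1 library per embryo. All embryos came from matings between carriers of the *Atf4*tm1Tow allele on a mixed C57Bl/6/129 background. The allele removes the *Atf4* coding sequence in the germline, so the *Atf4* null embryos lacked ATF4, a transcription factor of the integrated stress response, in the tissues around the lens as well as in the lens. Because whole lenses were used, a change in the number of cells of a type and a change in RNA per cell cannot be told apart.

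EMT is the process by which epithelial cells loosen their cadherin junctions, gain mesenchymal cytoskeleton and matrix, and become migratory. SNAIL, ZEB and TWIST factors are its classical drivers and repress E-cadherin. In the lens, injury or TGF-beta turns epithelial cells into myofibroblasts that contain α-smooth muscle actin (α-SMA) stress fibers and deposit fibronectin and tenascin-C, as in posterior capsular opacification after cataract surgery. Serum response factor (SRF) and its myocardin-related cofactors activate smooth muscle genes such as *Acta2* and *Tagln* through a DNA element called the CArG box.

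Between 7440807 and 8696699 counts lay on genes in the *Atf4* null libraries and between 8409779 and 8906996 in the wildtype libraries, so 3 counts correspond to between 0.337 and 0.403 CPM, the unit used here for counts scaled to a common library total with TMM factors. *Atf4* itself stood at 3.29, 8.64, 10.6 and 0.582 CPM in the *Atf4* null libraries and at 155, 141, 142, 129 and 119 CPM in the wildtype libraries, which fits the labelled genotypes. Wildtype replicate 5 stood apart before any comparison was made. Its 12 mesenchyme markers summed to 14560 CPM, against 272 to 295 CPM in wildtype replicates 1 to 4, and its 12 skeletal muscle markers to 9321 CPM, against 90.6 to 133 CPM. Its 10 lens fiber markers summed to 61051 CPM, against 104790 to 112380 CPM in the other wildtype libraries and 47071, 72889, 70223 and 112220 CPM in the *Atf4* null libraries. Each comparison was therefore made with all 9 libraries and with the 8 libraries that remain without it.

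In the *Atf4* null lens, *Acta2* and *Tagln*, the contractile cytoskeleton genes of the group, rose, and they did so with or without wildtype replicate 5. Of *Tnc* and *Fn1*, which encode matrix glycoproteins, neither passed the test in either comparison, and both changed sign when wildtype replicate 5 was left out. Among the transcription factors, *Zeb1* passed the test with 8 libraries by a small margin, at a fold change of 1.31, and *Snai1*, *Snai2*, *Zeb2* and *Twist1* did not pass. Thus, 2 of 9 genes tested had an adjusted p below 0.05 with 9 libraries, where 5.90% of 14903 genes did. The p-values here are those of the edgeR quasi-likelihood fit, adjusted for the number of genes tested, and log2 fold changes are given ± their standard error. With 8 libraries, *Snai1* and *Twist1* were not tested because their counts were too low for the filter, and 3 of the remaining 7 genes passed, where 8.33% of 14493 genes did. The calls were in the direction of higher levels in the *Atf4* null lens, for which the shares over all genes were 2.23% and 3.37%, against 3.67% and 4.96% for lower levels. Over the genes tested, the log2 fold change had a median of 0.00072 with 9 libraries and 0.026 with 8. An unadjusted p below 0.05, counted for the lists below, was met by 19.6% of 14903 genes with 9 libraries and by 3136 of 14493 with 8 (edgeR).

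**Figure D1:**
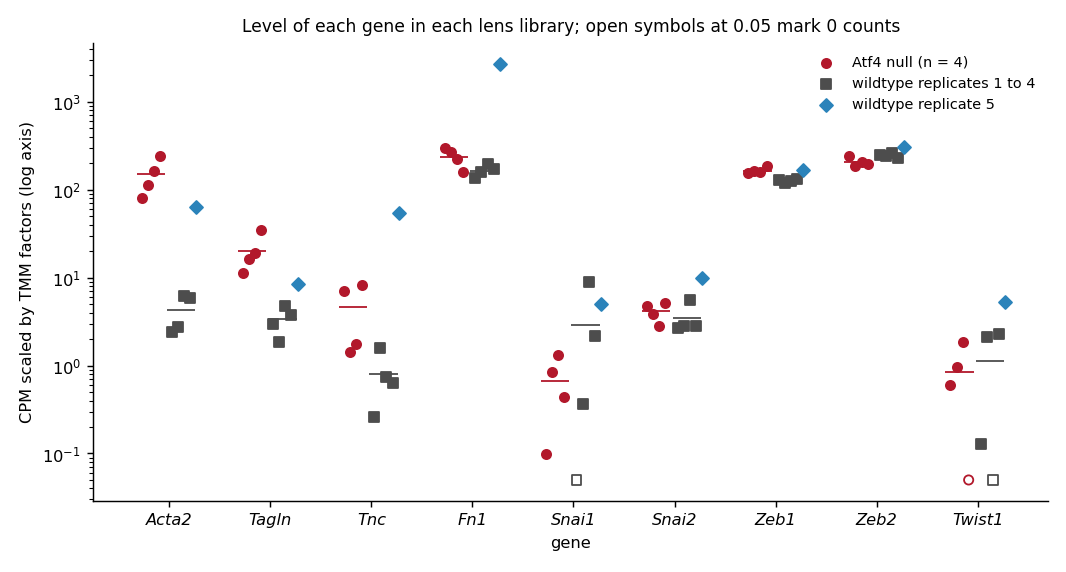
CPM scaled by TMM factors on a log axis for each of the 9 genes in each library; circles are *Atf4* null libraries, squares wildtype replicates 1 to 4 and diamonds wildtype replicate 5, lines are the means of the *Atf4* null libraries and of wildtype replicates 1 to 4, and open symbols drawn at 0.05 stand for 0 counts. The *Atf4* null libraries lie above the wildtype libraries for *Acta2* and *Tagln*, and wildtype replicate 5 lies far above the other libraries for *Tnc* (54.6 CPM) and *Fn1* (2727 CPM).

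*Acta2* (ENSMUSG00000035783) lies on chromosome 19 from 34217737 to 34232990 on the minus strand of GRCm39 and encodes α-SMA, the actin of smooth muscle and of myofibroblast stress fibers. Its promoter is shown because it holds the elements through which SRF acts on this gene, the gene with the largest change of the 9. These are the 250 bases before the RefSeq transcription start, at chr19:34255374-34255623 on the minus strand of GRCm38.p6, written 5′ to 3′ with matches to the CArG box in capitals.
Acta2 promoter: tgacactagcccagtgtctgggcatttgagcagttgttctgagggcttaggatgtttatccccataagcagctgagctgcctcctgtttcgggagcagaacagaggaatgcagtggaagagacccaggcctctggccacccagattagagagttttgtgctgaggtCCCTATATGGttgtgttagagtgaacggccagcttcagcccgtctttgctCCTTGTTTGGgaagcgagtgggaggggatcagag
A CArG box was counted where CC and GG flanked 6 bases of which at most 1 was G or C, on either strand. The window held 2 matches, from 84 to 75 and from 34 to 25 bases before the start. At least 1 match was present in 8.59% and at least 2 in 0.67% of the 32851 windows of the same length in the RefSeq table. A match describes the sequence and not binding.

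*Acta2* counts were 800, 933, 1478 and 1667 in the *Atf4* null libraries and 19, 22, 50, 46 and 598 in the wildtype libraries. On the CPM scale, these correspond to 79.7, 112, 162 and 243 CPM in *Atf4* null and to 2.44, 2.72, 6.18, 5.82 and 64.0 CPM in wildtype lenses. The groups did not overlap, as for 4.65% of the genes tested in this direction, but wildtype replicate 5 stood much closer to the *Atf4* null libraries than to the other wildtype libraries, at 14.9 times their mean. With 9 libraries, *Acta2* was 9.05-fold higher in *Atf4* null lenses (log2 fold change 3.18 ± 0.79, adjusted p = 0.0311, edgeR). Without wildtype replicate 5, it was 34.8-fold higher (log2 fold change 5.12 ± 0.37, adjusted p = 3.92e-07, edgeR). The lowest *Atf4* null library was then 12.9 times the highest wildtype library. Exact permutation tests of the mean log2 CPM, two-sided, gave p = 0.0159 for 4 against 5 libraries and p = 0.0286 for 4 against 4, the latter being the smallest that 4 against 4 allows. The call with 9 libraries was lost in a robust fit (adjusted p = 0.156) and when *Atf4* null replicate 2, 3 or 4 or wildtype replicate 1, 2, 3 or 4 was left out (adjusted p from 0.0649 to 0.0867), while with 8 libraries it held in 16 of 16 alternatives. 

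*Tagln* (ENSMUSG00000032085) lies on chromosome 9 from 45840909 to 45847404 on the minus strand and encodes transgelin, also called SM22α, a small protein that bundles actin filaments and is an early marker of smooth muscle. It was measured at 11.3, 16.3, 18.9 and 34.7 CPM in *Atf4* null and at 2.95, 1.85, 4.82, 3.80 and 8.57 CPM in wildtype lenses. The groups did not overlap, and wildtype replicate 5 was again the highest wildtype library, at 2.55 times the mean of the others. With 9 libraries, *Tagln* was 4.57-fold higher in *Atf4* null lenses (log2 fold change 2.19 ± 0.43, adjusted p = 0.0084, edgeR). Without wildtype replicate 5, it was 6.04-fold higher (log2 fold change 2.59 ± 0.40, adjusted p = 0.00055, edgeR). The exact permutation test, two-sided, gave p = 0.0159 and p = 0.0286 in the same order. *Tagln* passed the threshold in 17 of 17 alternatives with 9 libraries and in 16 of 16 with 8. 

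Within the *Atf4* null group, the lowest library for *Acta2* was also the lowest for *Tagln* (replicate 1), and the highest was replicate 4 for both. Levels of the 2 genes can be compared per exon length, as FPKM, which divides the scaled value by the exon length. *Acta2* had 24.7, 34.7, 50.2 and 75.2 FPKM in the *Atf4* null libraries, where *Tagln* had 5.51, 7.98, 9.23 and 17.0 FPKM. The ratio of *Acta2* to *Tagln* was thus 4.48, 4.35, 5.44 and 4.44 in *Atf4* null lenses. It was 0.523, 0.929, 0.812 and 0.971 in wildtype replicates 1 to 4, and 4.74 in wildtype replicate 5. By FPKM, *Tagln* was therefore the higher of the 2 in wildtype replicates 1 to 4, and *Acta2* in the *Atf4* null libraries and in wildtype replicate 5. The exon lengths used were 3227 bases for *Acta2* and 2044 for *Tagln*, and wildtype replicates 1 to 4 held only 15 to 50 counts per gene. In CPM, *Acta2* was also the higher in wildtype replicates 2, 3 and 4 (2.72, 6.18 and 5.82 against 1.85, 4.82 and 3.80). The ratios were formed after the values had been seen and are given without a test.

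**Figure D2:**
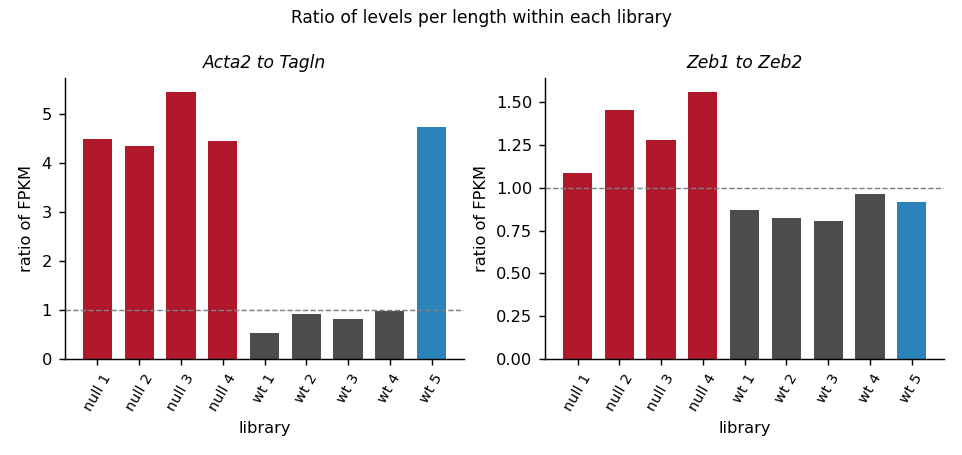
Ratio of FPKM of *Acta2* to *Tagln* (left) and of *Zeb1* to *Zeb2* (right) in each library; red bars are *Atf4* null, grey bars wildtype replicates 1 to 4 and blue bars wildtype replicate 5, and the dashed line marks a ratio of 1. By FPKM, *Acta2* exceeds *Tagln* in the *Atf4* null libraries and in wildtype replicate 5 (4.74), while *Zeb1* exceeds *Zeb2* in the 4 *Atf4* null libraries and in none of the 5 wildtype libraries. In CPM, without division by exon length, *Zeb2* is higher than *Zeb1* in every library, and *Acta2* is also higher than *Tagln* in wildtype replicates 2, 3 and 4.

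Smooth muscle actin and transgelin are also made by the pericytes of the vessels that surround the embryonic lens and by mesenchyme of the eye. The 10 pericyte and smooth muscle markers summed to between 241 and 410 CPM in *Atf4* null lenses, to between 361 and 539 CPM in wildtype replicates 1 to 4, and they reached 913 CPM in wildtype replicate 5. With 9 libraries, 0 of these 10 markers were higher and 2 were lower in *Atf4* null lenses by edgeR, the same numbers as by DESeq2 and by edgeR's exactTest, and 3 had an unadjusted p below 0.05. The 2 were *Rgs5* (log2 fold change -1.11 ± 0.29, adjusted p = 0.0355) and *Abcc9* (-1.19 ± 0.32, adjusted p = 0.0422), a G-protein regulator and a channel subunit typical of pericytes, and neither passed when counts were scaled by library size alone or in the robust fit. Of 9 markers tested without wildtype replicate 5, *Des* was higher and *Rgs5* and *Abcc9* were lower, but *Rgs5* and *Abcc9* did not pass with library size alone, and *Rgs5* did not pass in the robust fit. *Myh11*, the myosin of mature smooth muscle, was at 10.3, 6.36, 9.76 and 4.51 CPM in *Atf4* null and at 1.54, 5.92, 1.85, 8.99 and 57.3 CPM in wildtype lenses, and did not pass in either comparison. *Cnn1*, which encodes the smooth muscle calponin, had 1 count in the 9 libraries together, in *Atf4* null replicate 4.

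Of 11 mesenchyme markers tested, 8 were higher and 1, *Pdgfra*, was lower in *Atf4* null lenses without wildtype replicate 5. Where 10 counts were required in every library, 4 of 7 were higher and *Pdgfra* was lower. With 9 libraries, edgeR called *Pdgfra* alone, also lower, while DESeq2 called *Twist2* higher as well and a fit without a filter on low counts called *Postn* lower. As *Pdgfra* is expressed by the lens epithelium too, the other 11 markers of the list of 12 were also summed without it, a choice made after the values had been seen. They came to 433, 585, 349 and 246 CPM in *Atf4* null lenses, to 60.6, 83.4, 86.2 and 115 CPM in wildtype replicates 1 to 4, whereas wildtype replicate 5 held 14303 CPM. In the 8 libraries without wildtype replicate 5, this sum therefore moved with *Acta2* and *Tagln* between the genotypes. Across the 4 *Atf4* null libraries, in contrast, replicate 4 had the highest *Acta2* and *Tagln* and the lowest of these sums. Relative to this mesenchyme sum, *Acta2* was at 0.184, 0.191, 0.464 and 0.988 in *Atf4* null lenses, at 0.0403, 0.0325, 0.0716 and 0.0505 in wildtype replicates 1 to 4 and at 0.00448 in wildtype replicate 5. For *Tagln*, the same ratio was 0.0260, 0.0279, 0.0540 and 0.141 in *Atf4* null lenses and 0.0487, 0.0222, 0.0559 and 0.0330 in wildtype replicates 1 to 4, so the groups overlapped. The 10 neural retina markers summed to between 277 and 667 CPM in *Atf4* null and to between 153 and 247 CPM in wildtype lenses, and 4 of 9 tested were higher with 9 libraries and 5 with 8. Of the lens epithelium markers, 6 of 10 were lower with 9 libraries and 7 with 8, and of the lens fiber markers 2 of 9 and 2 of 8. *Atf4* null replicate 1, the lowest of the 4 in *Acta2* and *Tagln*, also had the lowest lens fiber sum, and replicate 4, the highest, had a fiber sum within the range of wildtype replicates 1 to 4. Among the remaining cell types with 9 libraries, 1 of 10 endothelium, 1 of 7 skeletal muscle and 1 of 6 erythroid markers were lower by edgeR. DESeq2 called 3, 1 and 4 of them lower and edgeR's exactTest 2, 4 and 3. With 8 libraries, edgeR called 0 of 10 endothelium markers, with 4 unadjusted p below 0.05, while DESeq2 and edgeR's exactTest called 1 (*Egfl7*) lower, and edgeR called 1 of 6 skeletal muscle and 2 of 6 erythroid markers lower. For skeletal muscle with 8 libraries, DESeq2 and edgeR's exactTest each called 2 higher (*Myh3* and *Ttn*) and 2 lower (*Actn2* and *Actn3*), and without a filter on low counts 3 were higher and 2 lower. Of 10 macrophage markers, edgeR, DESeq2 and edgeR's exactTest called 0 in both comparisons, and with edgeR 0 had an unadjusted p below 0.05 with 9 libraries and 1 with 8. Of 6 pigment cell markers, edgeR called 0, with 1 unadjusted p below 0.05, DESeq2 called 1 lower and edgeR's exactTest 0, and edgeR called 2 higher with 8 libraries (*Dct* and *Pmel*), where DESeq2 and edgeR's exactTest also called *Oca2* lower. *Dpt* among the mesenchyme markers had 0 counts in wildtype replicates 1 to 4. The part of these cell types in the differences of *Acta2* and *Tagln* was not tested.

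**Figure D3:**
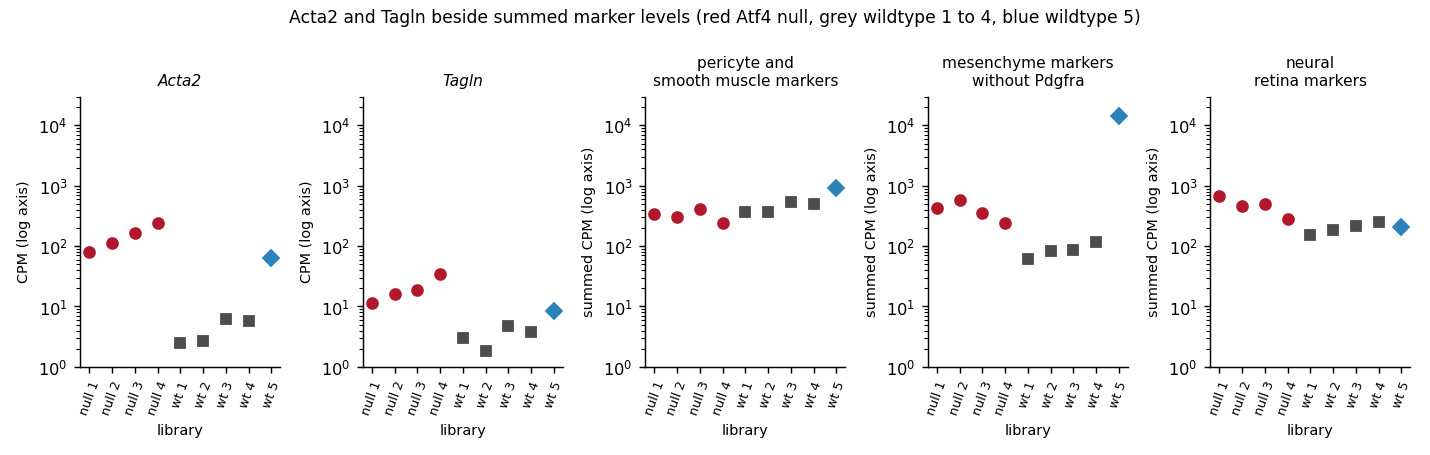
CPM of *Acta2* and *Tagln* and summed CPM of the pericyte and smooth muscle, mesenchyme (without *Pdgfra*) and neural retina markers in each library, on log axes of equal range; red circles are *Atf4* null, grey squares wildtype replicates 1 to 4 and the blue diamond wildtype replicate 5. *Atf4* null replicate 4 has the highest *Acta2* (243 CPM) and *Tagln* (34.7 CPM) and, of the 4 *Atf4* null libraries, the lowest of each of the sums.

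The other genes of the contractile apparatus were then examined as a list of 20. With 9 libraries, 0 of 18 tested passed with edgeR, while 4 had an unadjusted p below 0.05, as 19.6% of all genes did. DESeq2 and library size alone called 1 (*Cald1*, higher), edgeR's exactTest called 0, and a fit without a filter on low counts called *Acta1*, *Actc1* and *Tpm2* lower. With 8 libraries, 1 of 17 passed, and the median log2 fold change of the list was 0.026. DESeq2, edgeR's exactTest, library size alone, both other filters and the robust fit called 2, with *Cald1* besides. The gene called by edgeR was *Tpm1*, which encodes a tropomyosin of actin filaments, at 195, 217, 296 and 319 CPM in *Atf4* null and at 107, 90.3, 142 and 137 CPM in wildtype replicates 1 to 4 (log2 fold change 1.11 ± 0.18, adjusted p = 0.00077). Wildtype replicate 5 was higher than these, at 367 CPM, and the 9-library comparison gave 0.60 with an adjusted p of 0.359. The muscle actin paralogs of *Acta2* were low outside wildtype replicate 5. *Acta1*, the skeletal muscle actin, was between 1.44 and 5.88 CPM in *Atf4* null lenses, 0 and 3.80 CPM in wildtype replicates 1 to 4, and 531 CPM in wildtype replicate 5, and *Actc1*, the cardiac actin, was at 0.720 to 3.09, 0.385 to 1.52 and 209.6 CPM in the same groups. *Actg2*, the enteric smooth muscle actin, reached at most 1.73 CPM outside wildtype replicate 5. *Tagln2* (12.5 to 19.5 CPM in *Atf4* null and 13.3 to 33.0 CPM in wildtype lenses) and *Tagln3* (7.72 to 27 and 8.89 to 15.9 CPM) did not pass in either comparison.

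Among 8 genes of the SRF and myocardin cofactor list, *Egr1*, an immediate early transcription factor, rose in both comparisons. It was at 21.6, 48.0, 51.1 and 33.1 CPM in *Atf4* null and at 10.5, 12, 10.4, 13.5 and 20 CPM in wildtype lenses, with no overlap (log2 fold change 1.53 ± 0.28, adjusted p = 0.0053 with 9 libraries). *Vcl*, which encodes vinculin of focal adhesions, passed with 8 libraries (log2 fold change 0.68 ± 0.13, adjusted p = 0.0028) and not with 9 (0.52, adjusted p = 0.0831), where DESeq2 called it. *Srf* itself was at 35.9, 27.8, 28.7 and 22.0 CPM in *Atf4* null and at 21.3, 20.2, 23.7, 14.3 and 25.7 CPM in wildtype lenses, and its adjusted p was 0.274 and 0.169. In RefSeq promoters, a CArG box lay within 250 bases before a start in 4 of the 6 genes of this list with an entry (*Srf*, *Mrtfa*, *Vcl* and *Filip1l*). It did so in 6 of 19 of the contractile apparatus (*Acta1*, *Actc1*, *Cnn2*, *Myl9*, *Myl6* and *Fhl2*), against 9.78% of 27025 genes. Of these genes, *Vcl* alone passed in the 9-library or 8-library comparison, and *Tpm1* was not among them. Besides *Acta2*, the genes *Tnc*, *Snai1*, *Zeb2* and *Twist1* have entries, and none of these held a CArG box. The ATF4 element TGATGCAA, found in 0.791% of windows, was in no window of these 5 genes on either strand.

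*Tnc* (ENSMUSG00000028364, chromosome 4 from 63878014 to 63965443, minus strand) encodes tenascin-C, a matrix glycoprotein of wounds and of developing connective tissue. Its counts were 70, 12, 16 and 57 in *Atf4* null and 2, 13, 6, 5 and 510 in wildtype lenses, or 6.98, 1.44, 1.75 and 8.30 CPM against 0.257, 1.60, 0.741, 0.633 and 54.6 CPM. *Atf4* null replicates 1 and 4 stood above wildtype replicates 1 to 4, while replicates 2 and 3 lay close to wildtype replicate 2. With 9 libraries, the log2 fold change was -1.34 ± 1.25 (adjusted p = 0.634), and wildtype replicate 5 held 67.5 times the mean of the other wildtype libraries. Without wildtype replicate 5, it was 2.49 ± 0.79 (adjusted p = 0.0642), and the exact permutation p, two-sided, was 0.0571. That comparison passed the threshold in 4 of 15 alternatives, which were DESeq2 (adjusted p = 0.0119), the exactTest of edgeR, scaling by library size, and no filter on low counts.

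*Fn1* (ENSMUSG00000026193, chromosome 1 from 71624673 to 71692419, minus strand) encodes fibronectin, which connects integrins to the matrix. It was at 295, 268, 226 and 159 CPM in *Atf4* null lenses and at 136, 157, 194, 172 and 2727 CPM in wildtype lenses. In all, 3 of the 4 *Atf4* null libraries were above wildtype replicates 1 to 4, and replicate 4, which had the highest *Acta2*, was within their range. The log2 fold change was -1.52 with 9 libraries (standard error 0.82, adjusted p = 0.343) and 0.53 with 8 libraries (standard error 0.17, adjusted p = 0.0644). The exact permutation p, two-sided, was 0.984 and 0.0857. *Fn1* passed the threshold with 8 libraries in 5 of 16 alternatives, and without *Atf4* null replicate 4 its adjusted p was 0.00089.

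**Figure D4:**
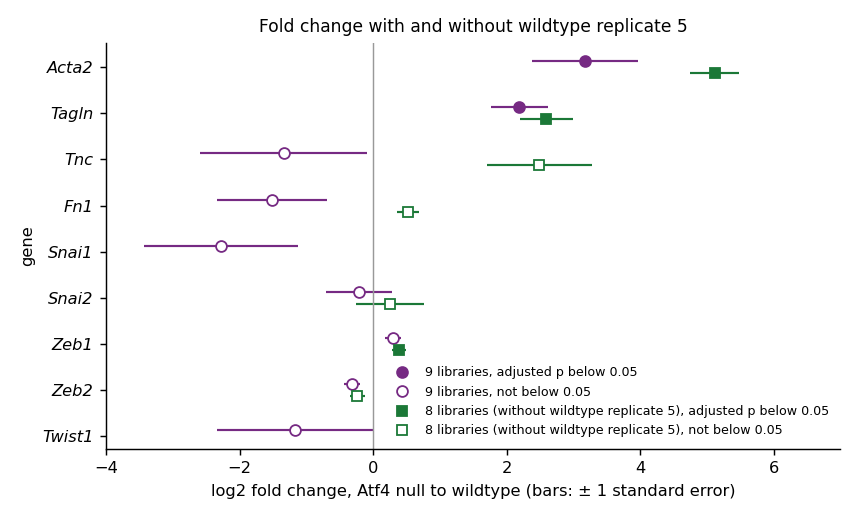
Log2 fold change from wildtype to *Atf4* null of each gene with 9 libraries (circles) and without wildtype replicate 5 (squares), with bars of 1 standard error; filled symbols have an adjusted p below 0.05 and open symbols do not. *Acta2* (3.18 and 5.12) and *Tagln* (2.19 and 2.59) are filled in both, *Tnc* (-1.34 and 2.49) and *Fn1* (-1.52 and 0.53) lie on opposite sides of 0, and *Snai1* and *Twist1* have no square because they were not tested with 8 libraries.

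The list of 21 further matrix genes of myofibroblasts gave a similar split between the comparisons. With 9 libraries, 0 were higher and 1 was lower, with a median log2 fold change of -0.74, and DESeq2 and edgeR's exactTest gave the same 2 counts. With 8 libraries, 5 of 20 tested were higher and 1 was lower, with a median of 0.41. The exactTest of edgeR called 7 higher, adding *Col5a2* and *Tgfbi*, and DESeq2 and library size alone called 8, with *Col5a1* besides. *Col1a1* and *Col1a2*, the chains of type I collagen, were at 145, 146, 93.6 and 116 CPM and at 95.2, 122, 66.2 and 42.4 CPM in *Atf4* null lenses, against at most 29.1 and 18.8 CPM in wildtype replicates 1 to 4. Wildtype replicate 5 held 6600.2 and 3209 CPM of them, and these 2 genes also belong to the mesenchyme markers. Without it, their log2 fold changes were 2.73 ± 0.26 (adjusted p = 6.94e-06) and 2.52 ± 0.29 (adjusted p = 3.69e-05). *Col3a1* (2.65), *Postn* (2.00) and *Ccn1* (1.64) were the other 3 that rose with 8 libraries. *Sparc*, a collagen-binding matrix protein of the lens capsule region, fell in both comparisons, by 0.65 and 0.54 on the log2 scale. It was at 415, 581, 577 and 559 CPM in *Atf4* null and at 738, 779, 779, 816 and 1082 CPM in wildtype lenses.

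The EMT transcription factors differed widely in abundance. Per length, *Zeb1* had 11.5 to 13.5 FPKM and *Zeb2* 8.21 to 10.6 FPKM in *Atf4* null lenses, whereas *Snai2* had 1.23 to 2.20, *Snai1* 0.0614 to 0.811 and *Twist1* 0 to 1.13 FPKM. In wildtype replicates 1 to 4, *Zeb2* (9.98 to 11.5 FPKM) was higher than *Zeb1* (8.73 to 9.60 FPKM), and *Fn1* (8.56 to 12.2 FPKM) overlapped both. By mean FPKM, *Acta2* led the 9 genes in *Atf4* null lenses, at 46.2 FPKM, followed by *Fn1* at 15.0 and *Zeb1* at 12.1 FPKM. In wildtype replicates 1 to 4, it averaged 1.33 FPKM, below *Tagln* at 1.64 FPKM and overlapping with *Snai2* at 1.5 FPKM.

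*Zeb1* (ENSMUSG00000024238, chromosome 18 from 5591851 to 5775467, plus strand) encodes a zinc finger repressor of E-cadherin. It was at 157, 163, 158 and 184 CPM in *Atf4* null and at 130.4, 119, 126.5, 131 and 167 CPM in wildtype lenses. Without wildtype replicate 5, the *Atf4* null libraries lay above the wildtype libraries, a separation seen in this direction for 6.67% of the genes tested. The log2 fold change was 0.39 ± 0.11 (adjusted p = 0.0406) with 8 libraries and 0.29 ± 0.12 (adjusted p = 0.189) with 9. The exact permutation p, two-sided, was 0.0286 and 0.0397. The call with 8 libraries was lost in 8 of 16 alternatives, whose adjusted p ranged from 0.0725 to 0.130. These included no filter on low counts and leaving out *Atf4* null replicate 2 or 3 or wildtype replicate 1, 2, 3 or 4. 

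*Zeb2* (ENSMUSG00000026872, chromosome 2 from 44873644 to 45007464, minus strand), its paralog with a similar pair of zinc finger clusters, was at 241, 187, 206 and 197 CPM in *Atf4* null and at 250.5, 242, 262, 227 and 304 CPM in wildtype lenses. *Atf4* null replicate 1 lay within the wildtype range and the other 3 below it. The log2 fold change was -0.31 ± 0.12 (adjusted p = 0.167) with 9 libraries and -0.24 ± 0.11 (adjusted p = 0.235) with 8, so *Zeb2* did not pass. Its unadjusted p with 9 libraries was 0.0231 (edgeR), and 19.6% of the genes tested had an unadjusted p below 0.05. The ratio of *Zeb1* to *Zeb2* FPKM was 1.09, 1.45, 1.28 and 1.56 in *Atf4* null lenses. It was 0.869, 0.820, 0.806, 0.962 and 0.917 in wildtype replicates 1 to 5. In CPM, without division by the exon lengths (13635 bases for *Zeb1* and 22741 for *Zeb2*), *Zeb2* was higher than *Zeb1* in every library. The ratio of FPKM was formed after the values had been seen, and it does not separate wildtype replicate 5 from the other wildtype libraries, as the ratio of *Acta2* to *Tagln* does.

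*Snai2* (ENSMUSG00000022676, chromosome 16 from 14523425 to 14527252, plus strand) encodes SLUG, a SNAIL family repressor of the neural crest. It was at 4.78, 3.84, 2.85 and 5.10 CPM in *Atf4* null and at 2.70, 2.84, 5.56, 2.78 and 9.96 CPM in wildtype lenses, and the groups overlapped. Its log2 fold change was -0.21 ± 0.50 (adjusted p = 0.882) with 9 libraries and 0.26 ± 0.51 (adjusted p = 0.839) with 8. *Snai1* (ENSMUSG00000042821, chromosome 2 from 167380113 to 167384734, plus strand), which encodes SNAIL, had 1, 7, 12 and 3 counts in *Atf4* null and 0, 3, 73, 17 and 47 counts in wildtype lenses. Wildtype replicate 3 held more *Snai1* than wildtype replicate 5, so this gene did not follow the other 8, for which wildtype replicate 5 was the highest wildtype library. Its log2 fold change with 9 libraries was -2.28 ± 1.16 (adjusted p = 0.306). *Twist1* (ENSMUSG00000035799, chromosome 12 from 34007645 to 34009828, plus strand), a basic helix-loop-helix factor of head mesenchyme, had 6, 8, 17 and 0 counts in *Atf4* null and 1, 17, 0, 18 and 49 counts in wildtype lenses. Its log2 fold change was -1.17 ± 1.17 (adjusted p = 0.660).

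Of 15 further EMT transcription factors, 13 were tested. With 9 libraries, 0 passed by edgeR, 3 had an unadjusted p below 0.05, DESeq2 called 1 (*Twist2*) and edgeR's exactTest called 0. With 8 libraries, 1 of 13 passed, *Twist2*, the paralog of *Twist1* and a factor of dermal mesenchyme. Its counts were 35, 40, 27 and 57 in *Atf4* null and 5, 0, 0, 0 and 22 in wildtype lenses, and the groups did not overlap (adjusted p = 0.0077 with 8 libraries and 0.136 with 9). With 8 libraries, *Twist2* passed the filter on the counts of the *Atf4* null libraries alone. Where 10 counts were required in every library, it was not tested and 0 of 10 genes of this list were called. *Twist2* also belongs to the mesenchyme markers. *Snai3*, the remaining SNAIL paralog, had 0 counts outside wildtype replicate 5, where it had 6.

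TGF-beta, the main inducer of lens EMT, acts through receptor kinases and SMAD proteins. In the list of 18 ligands, receptors and SMADs, edgeR called 2 higher and 0 lower with 9 libraries, where 7 had an unadjusted p below 0.05, and 3 higher and 0 lower with 8, where 8 did. The exactTest of edgeR gave these counts in both comparisons. DESeq2 called 3 higher and 1 lower (*Eng*, a TGF-beta co-receptor of endothelium) with 9 libraries and 3 and 0 with 8, and without a filter on low counts *Eng* was lower in both. With library size alone, 4 and 6 were higher. *Smad2*, a receptor-activated SMAD, was at 92.1, 60.7, 64.1 and 92 CPM in *Atf4* null and at 45.8, 48.3, 47.6, 54.6 and 52.4 CPM in wildtype lenses (log2 fold change 0.64 ± 0.15, adjusted p = 0.0267 with 9 libraries). *Skil*, which encodes the SMAD repressor SNON, was at 249, 219, 229 and 233 CPM against 149, 155, 155, 196 and 142 CPM (0.55 ± 0.12, adjusted p = 0.0132). Its paralog *Ski* passed with 8 libraries (0.53, adjusted p = 0.0297) and not with 9 (0.46, adjusted p = 0.0873). The ligand *Tgfb2*, at 193 to 292 CPM in *Atf4* null and 188 to 231 CPM in wildtype lenses, did not pass in either comparison.

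On the epithelial side, *Cdh1*, which encodes the E-cadherin that the SNAIL and ZEB factors repress, fell. It was at 5.58, 20.8, 16.4 and 13 CPM in *Atf4* null and at 197, 172, 204, 185 and 130.3 CPM in wildtype lenses, so the log2 fold change with 9 libraries was -3.68 ± 0.30 (adjusted p = 2.2e-05). *Cdh1* also belongs to the 10 lens epithelium markers. These summed to between 913 and 1266 CPM in *Atf4* null lenses, between 1955 and 2150 CPM in wildtype replicates 1 to 4 and 1599 CPM in wildtype replicate 5. *Cdh2*, which encodes N-cadherin and is commonly gained in EMT, fell as well, by 0.72 and 0.84 on the log2 scale with 9 and 8 libraries. *Vim*, the mesenchymal intermediate filament that lens cells also contain, was at 1172 to 1600 CPM in *Atf4* null and at 1613 to 1977 CPM in wildtype lenses and was lower with 8 libraries (-0.39, adjusted p = 0.0466). That call was lost with edgeR's exactTest and with library size alone, while DESeq2 called *Vim* lower in both comparisons. *Krt19*, a keratin of simple epithelia, rose, from 1, 5, 0, 5 and 20 counts in wildtype to 86, 103, 141 and 182 counts in *Atf4* null lenses (adjusted p = 0.0027 with 9 libraries). It passed the filter through the counts of the *Atf4* null libraries. *Tjp1*, which encodes the tight junction protein ZO-1, was at 1045, 1526, 1433 and 2324 CPM in *Atf4* null and at 637 to 1067 CPM in wildtype lenses, so the groups overlapped. It passed in both comparisons (0.75, adjusted p = 0.0499, and 0.65, adjusted p = 0.0369), but in neither when the replicate number was used as a block. Of 13 genes tested in this list, 2 were higher and 2 lower with 9 libraries, and 2 were higher and 3 lower with 8, where DESeq2 also called *Krt18* higher and edgeR's exactTest *Krt8* and *Krt18*. In the promoters, CAGGTG, the letters that SNAIL and ZEB proteins recognize, was found on either strand in 5 of the 12 genes of the list with an entry, against 19.4% of all genes. The 5 were *Epcam*, *Ocln*, *Cldn7*, *Krt8* and *Krt18*, none of which passed in the 9-library or 8-library comparison. Among the 5 EMT genes with an entry, it was found in the *Snai1* window.

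**Figure D5:**
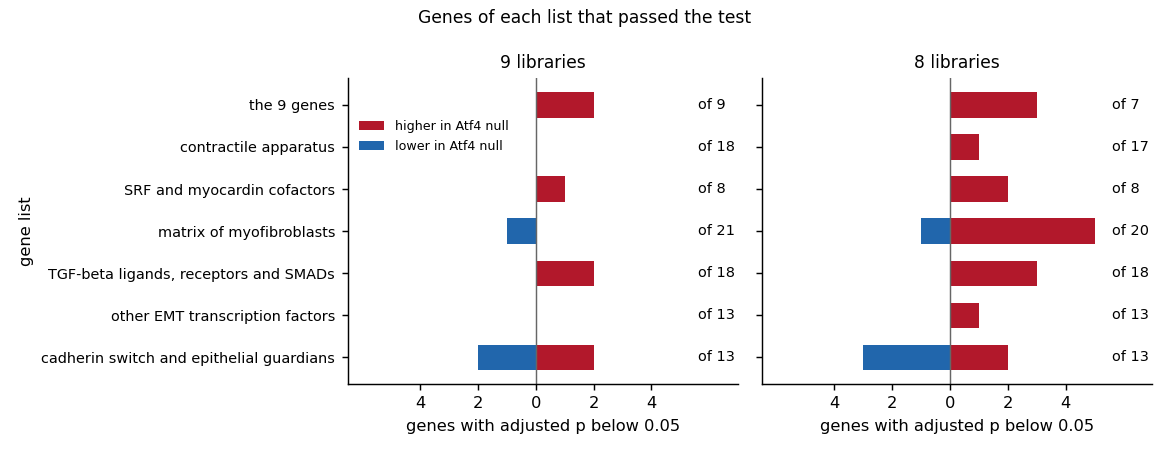
Number of genes with an adjusted p below 0.05 in each list with 9 libraries (left) and 8 libraries (right); red bars count genes higher and blue bars genes lower in *Atf4* null lenses, and the number of genes tested is given at the right of each row. Between the panels, the matrix list goes from 0 to 5 genes that were higher, while the contractile apparatus goes from 0 to 1.

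Genes whose levels followed those of the 9 genes most closely were found by the root mean square difference of log2 CPM, each centred on its mean over the 9 libraries. *Cdkn1a*, which encodes the cell cycle inhibitor p21, was nearest to *Acta2* (0.73), followed by *Krt19* (0.88) and *Eda2r* (0.96), a p53-responsive receptor. *Txnip* (0.50), *Cnbd2* (0.50) and *Mapkapk3* (0.51) were nearest to *Tagln*, and *Ppp2r2c* was among the 5 nearest to both *Acta2* and *Tagln*. *Flnc* (0.64) and *Ryr1* (0.87), genes of striated muscle, were nearest to *Tnc*. *Col5a2* (0.19), *Gpc3* (0.23) and *Akap12* (0.27) were nearest to *Fn1*. *Aff4* (0.08) and *Rcor1* (0.09) were nearest to *Zeb1*, and *Rcbtb2* (0.07) and *Tctn1* (0.08) to *Zeb2*. For *Snai2*, *Pld2* was nearest (0.21), and for *Snai1* and *Twist1*, with few counts, the nearest genes were at 0.99 and 0.84. A small difference for the *Zeb* genes and a large one for *Acta2* follow in part from how much each gene varied.

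Some reads may not be assigned to these genes without doubt. *Acta2* shares 301 exon bases with *Stambpl1* and *Tagln* shares 1241 with *Gm48529*, both on the opposite strand, and whether the counting used strand is not given in the sources used here. *Stambpl1* had 84 to 132 counts in *Atf4* null and 52 to 142 in wildtype libraries, and *Gm48529* 1 to 14 and 0 to 19. Of the 3459 windows of 50 bases in *Acta2* transcripts, 0.202% also occur in another gene, and 0 of the 2135 in *Tagln* do.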

How the data were processed

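The libraries of 4 *Atf4* null and 5 wildtype lens pairs were made with a stranded total RNA kit. Per the study's methods, adapters were trimmed (Trim Galore), ribosomal reads were discarded (HISAT2), and the remaining reads were aligned to GRCm39 and counted per Ensembl gene (HTSeq). The deposited values are these raw counts. The 5 summary entries of HTSeq, with 44.6% to 47.7% of the counts of a library, were left out. Symbols, positions and exon lengths were taken from GENCODE vM39, which gave a symbol for 54749 of 55416 genes. No library repeated another (36 pairs compared by chi-square, at least 7.70 per degree of freedom). In the titles of the wildtype samples, the library named differs from that of the counts, so wildtype numbers follow the titles and the genotype is unaffected.

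Counts were compared with edgeR 4.0.16 in R 4.3.3 (filterByExpr, TMM factors, quasi-likelihood test by genotype without covariates), with Benjamini-Hochberg adjustment of p across genes tested and a threshold of 0.05. The fit was made with 9 libraries and anew without wildtype replicate 5. Exact permutation tests used log2 CPM with a prior count of 2. On simulated data with changes of 1.5 and 3 on the log2 scale, 57% and 97% of changed genes were recovered with 9 libraries and 72% and 96% with 8. All simulated libraries were drawn from the means of wildtype replicates 1 to 4, with a common dispersion for all genes. They hold neither the departure of wildtype replicate 5 nor the spread of single genes, so these shares do not measure recovery in the real libraries. Alternatives were DESeq2 1.42.0, edgeR's exactTest, library size or DESeq2 size factors in place of TMM factors, no filter, a filter that required 10 counts in every library, a robust fit, the replicate number as a block, and each library left out in turn.

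The 9 genes and the lists were chosen with earlier results of these data known. Genes named from the pathway lists are those with an adjusted p below 0.05 in either fit, at most 8 per list, and the paralogs of the 9 genes. *Cald1*, *Tpm2*, *Col5a1*, *Col5a2*, *Tgfbi*, *Eng*, *Krt8* and *Krt18* passed in neither fit and were named after an alternative had called them. Listed genes are also named where their promoter held a CArG box or CAGGTG. *Srf*, *Tgfb2*, *Myh11* and *Cnn1* were named after their values had been seen. Nearest genes were sought where either genotype averaged 50 counts or more. Promoters are RefSeq sequences of GRCm38.p6, which were matched for 5 of the 9 genes. *Tagln*, *Fn1*, *Snai2* and *Zeb1* have no entry. Endothelium, macrophage, lens, pigment cell and erythroid markers were examined as well.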

Additional observations from a re-analysis of the deposited data

Results flagged for a closer look

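Wildtype replicate 5 was far from the other 4 wildtype libraries in *Acta2* (64.0 CPM), *Tnc* (54.6 CPM), *Fn1* (2727 CPM) and *Zeb1* (167 CPM). The gap to the nearest library was 0.939, 0.975, 0.978 and 0.753 of the range of the group, above the 0.71 that marks a lone value among 5 samples. These were 4 of 18 groups examined, and chance marks about 1 in 20 independent groups. The 4 come from 1 library that was already set apart, so they are not independent and are given as a description. All 4 values come from the library with high mesenchyme and skeletal muscle markers (14560 and 9321 CPM), whose part in them was not tested.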

How the results depend on the processing

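*Acta2* with 8 libraries, *Tagln* with 9 and 8, and the direction of *Zeb1* and *Zeb2* held under the alternatives run. The number of genes called was 880 with 9 libraries, 1397 with DESeq2 and 527 to 1207 with each library left out, and 1207 with 8 libraries, of which leaving out single libraries gave 795 to 1820. Of the 9 genes, 2 were called with 9 libraries, 1 in the robust fit and 1 to 3 with a library left out. With 8 libraries, 3 were called, 5 each with DESeq2, edgeR's exactTest and library size alone, and 2 to 4 with a library left out. Library size alone moved the median log2 fold change of all genes from 0.00072 to 0.12 with 9 libraries and from 0.026 to 0.18 with 8, and the share of calls that were higher from 37.8% to 64.3% with 9 libraries and from 40.4% to 68.7% with 8. Without wildtype replicate 5, the log2 fold changes of *Tnc*, *Fn1* and *Snai2* turned from negative to 2.49, 0.53 and 0.26. Leaving out single libraries gave ranges of -1.77 to 2.49 for *Tnc*, -1.78 to 0.53 for *Fn1* and -0.36 to 0.26 for *Snai2*.

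The replicate numbers share no stated litter or day, and same-numbered libraries did not deviate together (correlations -0.13, -0.02, -0.02 and 0.01). With the replicate block, which takes wildtype replicate 5 out of the 9-library contrast, *Tnc* (2.25), *Fn1* (0.50), *Snai2* (0.30) and *Twist1* (0.10) changed sign, 852 genes were called with 9 libraries and 873 with 8, and *Zeb1* had an adjusted p of 0.0947 with 8. *Snai1*, *Twist1* and *Tnc* had at most 20 counts in several libraries, and the part of depth in their results was not tested. Without a filter on low counts, 6 of 9 lens fiber markers were lower, 8 of 10 neural retina markers were higher and 3 further EMT factors were higher with 8 libraries, and 1 matrix gene was higher and 3 were lower with 9. With the replicate block, *Tjp1* did not pass with 9 or 8 libraries, and *Vim*, *Ski* and *Des* did not pass with 8 libraries. The cause of these shifts was not tested.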
